A study of Arabidopsis thaliana with 12 samples.

Results

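The transcript response of Arabidopsis seedlings to 4 h of dexamethasone (DEX) was followed in a line that carries 35S:LOB-GR. The comparison used the 6 arrays titled as 35S:LOB-GR, 3 with DEX and 3 with mock medium, of 12 in the study. The transcript of LOB itself was not analysed here, and how many transgenic lines stood behind the arrays is not stated in the labels. All 22746 probe sets that are no Affymetrix controls were tested, of 22810 on the array. Of these, 13513 matched 1 gene in the platform annotation, and they stood for 13356 genes. Only 1671 of these genes carry a name beyond their locus number, and 1241 could be placed in at least 1 of the lists by function described here. Genes known only by a locus number are counted but given no role.

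All seedlings were 9 days old, had the Col-0 background and had been raised on MS plates, then shaken in liquid MS medium for 4 h. The 35S:LOB-GR DEX group had 5 µM DEX in that medium and the 35S:LOB-GR mock group had none, so both groups carry the transgene and went through the same flooding. The other 6 arrays are Col wild type with DEX and Col wild type with mock medium, 3 of each, and serve as the measure of what DEX does without the transgene. Total RNA of whole seedlings was purified over columns, labelled with biotin and hybridised to 1 array a sample. The labels call the 3 arrays of a group biological replicates and say no more of their origin.

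LATERAL ORGAN BOUNDARIES (LOB) is the founding member of the LOB-domain family of plant transcription factors and is normally expressed in the narrow strip of cells at the base of lateral organs, where growth is slow. GR stands for the steroid-binding part of a mammalian glucocorticoid receptor, which keeps the fused factor in the cytoplasm and lets it enter the nucleus once DEX is bound. The 35S promoter of cauliflower mosaic virus drives expression in most plant cells, so the fusion is present far beyond the boundary. In Arabidopsis, LOB is known to limit brassinosteroid action in boundaries by inducing BAT1, which inactivates these growth-promoting steroids. In whole seedlings, fewer cells of a type and less RNA per cell cannot be told apart.

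Values are log2 levels made with RMA, so a difference of 1 is a 2-fold change, and no level is a count. A probe set was called when limma's adjusted p (Benjamini-Hochberg over all 22746 probe sets, two-sided) was under 0.05, and "rose" and "fell" are used only of called probe sets. By this rule 2267 probe sets, 9.97% of those tested, were called: 904 rose (3.97%) and 1363 fell (5.99%). Most of the response was small. Of the probe sets that rose, 86 changed at least 2-fold and 818 less, and of those that fell, 237 changed at least 2-fold and 1126 less. The median change was 0.49 among rises and -0.63 among falls, and the smallest called changes were 0.25 and -0.26, beside a median standard error (SE) of 0.11. The 3 DEX arrays lay wholly above or below the 3 mock arrays for 22.8% of all probe sets.

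Falls outnumbered rises on the deposited scale, where 39.88% of the calls were rises. With each array's median subtracted, 1311 of 2474 calls were rises (52.99%), since that step raised every change by 0.05. After a second quantile normalization, falls again outnumbered rises, with 983 rises among 2271 calls (43.28%). The balance of rises and falls over all probe sets therefore depends on the scaling, whereas a gene's place relative to the others is kept. Within the groups, arrays correlated across probe sets at no less than 0.992. DEX replicate 1 differed most from the other arrays of its group. Its weight was 0.45 where limma estimated array weights, and 1858 of the 2267 calls remained without it. In 4 equal classes of mean level, 0.95% were called in the lowest, which ends at a level of 4.12, and between 9.41% and 15.3% in the others. The measured markers of leaf mesophyll, root hair, guard cell and meristem or boundary, RCA, EXPA7, EXPA18, FMA, CLV3 and LAS, changed by between -0.27 and 0.14, and none was called. They were 1 of 8, 2 of 7, 1 of 6 and 2 of 8 listed markers in that order. No listed marker of epidermis, xylem, phloem, root cap and tip or seed was found by name. Cell composition was thus hardly covered. CLV3 stood near the low end of the scale, at 4.01 or below in the DEX arrays and 4.28 or below in the mock arrays.

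In Col the same fit called 13 probe sets with DEX (0.0571%), and 3 of these were also called in 35S:LOB-GR. The test of the difference between the DEX responses, 35S:LOB-GR minus Col, called 1085 probe sets (4.77%) and 3.88% of the named genes. It was called for 82 of the 86 probe sets that rose at least 2-fold in 35S:LOB-GR and for 193 of the 237 that fell at least 2-fold, but for 312 of all 904 rises and 612 of all 1363 falls. The standard error of a difference of responses is larger, 0.15 at the median, so a small change can be called in 35S:LOB-GR without a called difference. The 2 responses share no arrays.

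Among the 13356 named genes, 8.82% were called, 530 higher (3.97%) and 648 lower (4.85%), with a median change of 0.03. These shares are set beside the counts of list members below. Lists were built from symbols and synonyms, so genes with a name beyond the locus are a closer background. Of those 1671 genes 65 rose (3.89%) and 122 fell (7.30%). Of the 1241 genes placed in lists 51 rose (4.11%), a rate like both backgrounds. Falls numbered 110 (8.86%), above the 4.85% of all named genes but nearer to the 7.30%. The median change of list genes was -0.0038. Each gene is represented by its brightest probe set. A measured member is a gene whose symbol or synonym matched the list, so family members known only by a locus number are not included. A signed value in brackets after a gene is its log2 change, DEX minus mock in 35S:LOB-GR, and a value after ± is its SE. A call that ended when 1 of the 6 arrays was left out is marked beside the gene by the array and by the highest adjusted p that such a fit gave.

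**Figure D1:**
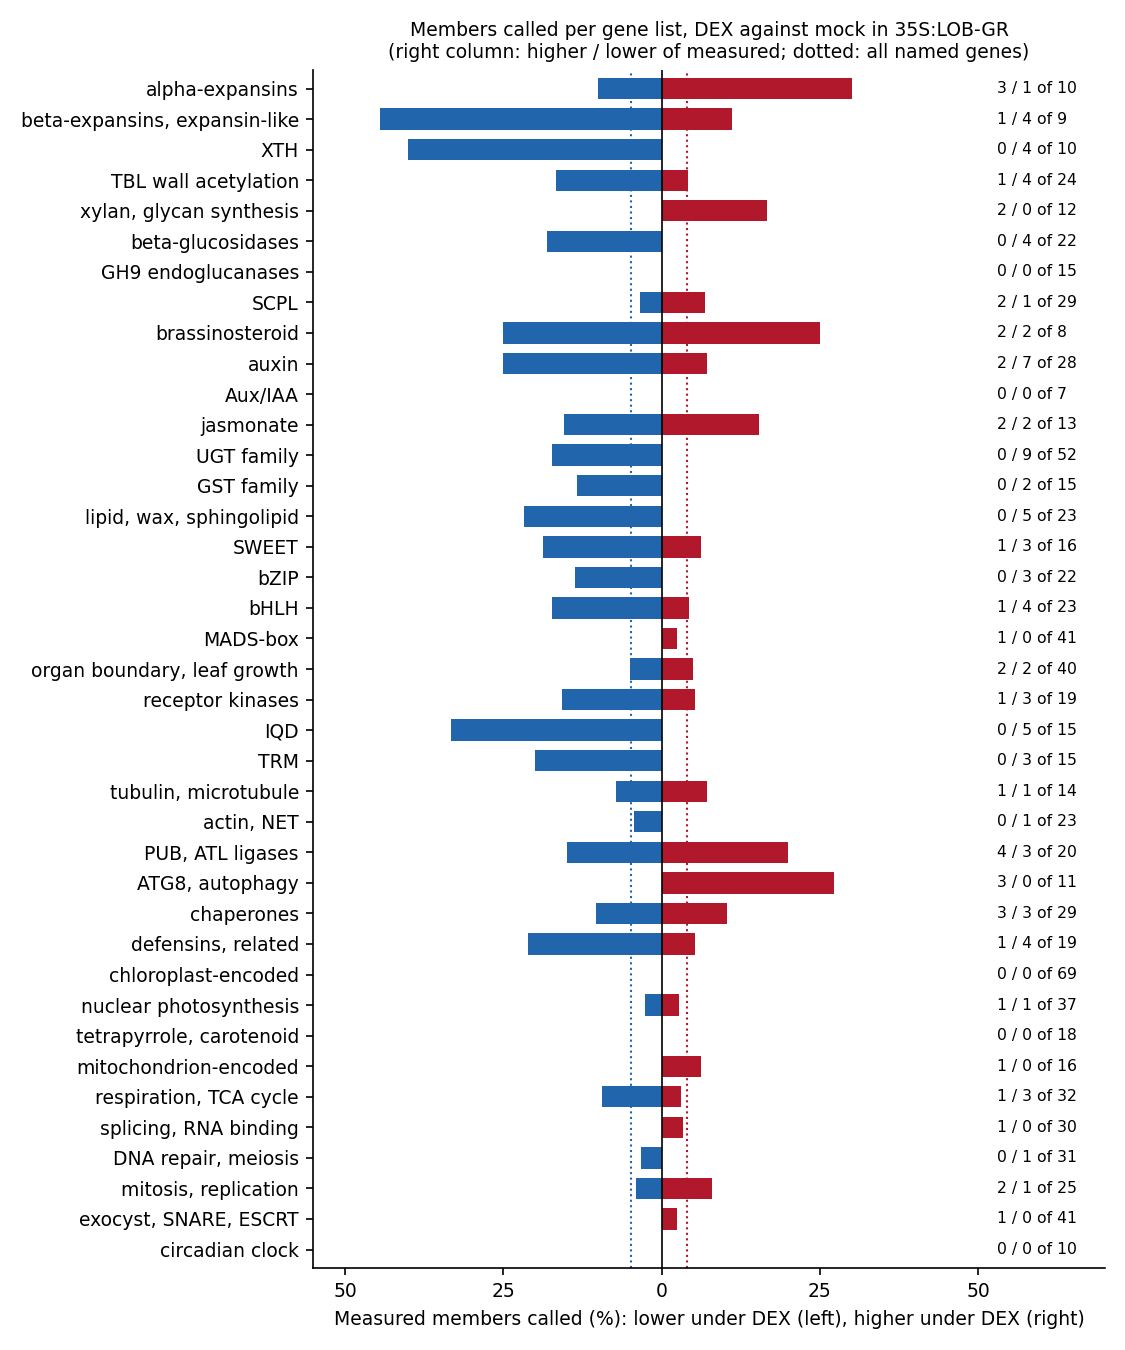
Share of the measured members of 39 gene lists that were called higher (right, red) or lower (left, blue) with DEX in 35S:LOB-GR, in percent, with the counts beside the bars. Dotted lines mark the shares over all named genes, 3.97% higher and 4.85% lower. Bars for wall-loosening families, auxin genes and IQD proteins reach far beyond these lines, and chloroplast-encoded genes have no bar.

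Genes that loosen and remodel the cell wall changed in both directions. Expansins are secreted proteins that let wall polymers slip past each other without cutting them, which allows a turgid cell to enlarge. Of 10 measured alpha-expansins, 3 rose and 1 fell, with a median change of 0.16. EXPA9 had log2 levels of 8.60, 8.17 and 8.50 in the DEX arrays, against 6.55, 6.54 and 6.69 in the mock arrays. The lowest DEX array thus stood well above the highest mock array, and the change was 1.83 ± 0.12 (SE) with a limma adjusted p of 1.77e-07. EXPA4 was brighter, at 9.93, 9.80 and 9.91 in the DEX arrays, against 8.44, 8.61 and 8.41 in the mock arrays. The arrays of the 2 groups did not overlap, and EXPA4 rose by 1.39 ± 0.09 (limma adjusted p = 2.46e-07). EXPA20 rose by 0.41 ± 0.09, again without overlap. EXPA8 went the other way, at 5.72, 4.83 and 5.32 in the DEX arrays, against 6.996, 7.27 and 7.79 in the mock arrays. All 3 mock arrays were higher than every DEX array, and EXPA8 fell by 2.06 ± 0.23 (limma adjusted p = 2.86e-05). In Col the same gene had a change of 0.67, not called, and the difference of responses was called (limma adjusted p = 0.00015). The 6 members that were not called, EXPA15, EXPA16, EXPA7, EXPA18, EXPA21 and EXPA24, lay between 0.02 and 0.28.

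Beta-expansins and expansin-like proteins belong to the same superfamily. Of 9 measured members 1 rose, EXPB3, and 4 fell, with a median of -0.11. EXPB3 had levels of 9.51, 8.77 and 8.77 in the DEX arrays, against 8.06, 7.93 and 8.23 in the mock arrays. DEX replicate 1 was the highest of them, and the groups did not overlap (0.95 ± 0.16, limma adjusted p = 0.000867). EXLA1 fell by 0.82 ± 0.13 and EXLB1 fell by 0.63 ± 0.13, each without overlap. EXLA2 (-0.65) and EXPB1 (-0.38) also fell, but their calls ended with 1 array left out, for EXLA2 without DEX replicate 1 or mock replicate 2 (adjusted p up to 0.0677) and for EXPB1 without DEX replicate 2 or mock replicate 3 (adjusted p up to 0.0662). The change of EXLA2 was -0.39 without mock replicate 2.

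Xyloglucan endotransglucosylase/hydrolases (XTH) cut and rejoin the xyloglucan that tethers cellulose. None of 10 measured members rose and 4 fell, with a median of -0.25 and a highest value of 0.0058. XTH16 had levels of 7.64, 7.54 and 7.84 in the DEX arrays, against 8.88, 9.04 and 8.97 in the mock arrays. Its DEX arrays were all more than 1 log2 unit below its lowest mock array, and it fell by 1.29 ± 0.11 (limma adjusted p = 2.45e-06). XTH20 fell by 0.91 ± 0.10 from a low level, with 4.25, 4.34 and 4.17 in the DEX arrays, against 5.25, 5.10 and 5.14 in the mock arrays. The groups did not overlap, although the DEX arrays were close to the lowest class of levels. XTH18 and XTH19, neighbours on chromosome 4, fell too (-1.04 and -0.55). Their calls were weak and ended for XTH18 without DEX replicate 2 or 3 or mock replicate 2 (adjusted p up to 0.0847) and for XTH19 without DEX replicate 2 or 3 or mock replicate 1 or 2 (adjusted p up to 0.15). XTH18 changed by -0.59 without mock replicate 2 and XTH19 by -0.37 without DEX replicate 3. CSLC04, which makes the glucan backbone of xyloglucan, fell by 0.42 ± 0.10, a call that ended without mock replicate 2 (adjusted p up to 0.0656).

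Pectin methylesterases (PME) strip methyl groups from pectin in the wall and so alter its stiffness. Of 4 measured members recognised by name, a small part of the family, 2 fell and none rose. ATPMEPCRB, also named PME41, had levels of 6.13, 6.07 and 5.83 in the DEX arrays, against 8.70, 9.66 and 8.55 in the mock arrays. Mock replicate 2 was the highest by nearly 1 log2 unit, yet the lowest mock array still exceeded the highest DEX array by more than 2 units. It fell by 2.96 ± 0.26 (limma adjusted p = 2.37e-06), the largest fall among the genes in these lists. PMEPCRF had 7.86, 7.85 and 7.90 in the DEX arrays, against 8.57, 8.70 and 8.55 in the mock arrays. Its arrays were tightly grouped without overlap, and it fell by 0.74 ± 0.09 (limma adjusted p = 3.81e-05). PME61 (0.11) and AT4G02300, also named PME39 (0.11), were not called.

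The TRICHOME BIREFRINGENCE-LIKE (TBL) family adds acetyl groups to wall polysaccharides. Of 24 measured members 1 rose and 4 fell. TBL37 had levels of 6.83, 7.11 and 7.06 in the DEX arrays, against 8.47, 8.57 and 8.40 in the mock arrays. These 2 sets lay more than 1 log2 unit apart, and TBL37 fell by 1.48 ± 0.09 (limma adjusted p = 1.77e-07), while in Col it had a change of -0.02. TBL38 fell by 0.68 ± 0.11 and TBL35, a xylan acetyltransferase, rose by 0.55 ± 0.09, both without overlap. TBL41 (-0.40) and AT2G31110 or TBL40 (-0.43) had calls that ended for TBL41 without DEX replicate 1 or 2 or mock replicate 1 or 2 (adjusted p up to 0.134) and for AT2G31110 without DEX replicate 2 or mock replicate 2 (adjusted p up to 0.103). A dimmer probe set of AT2G31110 had a change of -0.38 and was not called (limma adjusted p = 0.14). Among 12 genes of xylan and glycan synthesis 2 rose and none fell. GAUT15, of the galacturonosyltransferase family that builds pectin, had 7.12, 6.85 and 6.60 in the DEX arrays, against 5.83, 5.79 and 5.90 in the mock arrays. The DEX arrays spread over 0.5 log2 units but stayed above the mock arrays (1.02 ± 0.12, limma adjusted p = 4.28e-05). GUT2, which extends the xylan backbone, rose by 0.45 ± 0.10, and its call ended without DEX replicate 3 or mock replicate 2 (adjusted p up to 0.0599).

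Beta-glucosidases release glucose from small conjugates and wall oligosaccharides. None of 22 measured members rose and 4 fell. BGLU44 was bright, at 9.73, 9.71 and 9.64 in the DEX arrays, against 10.56, 10.47 and 10.32 in the mock arrays. DEX and mock arrays did not overlap, and BGLU44 fell by 0.75 ± 0.09 (limma adjusted p = 5.76e-05), against a change of 0.14 in Col, where it was not called. BGLU40 fell by 0.82 ± 0.09 and BGLU33 fell by 0.80 ± 0.17, and BGLU46, which acts on monolignol glucosides, fell by 0.31 ± 0.09 with a call that ended without DEX replicate 1 or 3 or mock replicate 1 (adjusted p up to 0.137). It was also not called with each array's median subtracted. By contrast none of 15 GH9 endoglucanases, a family that includes enzymes of cellulose synthesis, was called in either direction, and their median was -0.01. Of 29 serine carboxypeptidase-like genes, SCPL45 (0.51) and scpl48 (0.45) rose and SCPL34 fell (-0.63), a share close to that of all named genes. Called rises among them numbered 5 with each array's median subtracted.

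The class III peroxidase AT5G64120 (PRX71), a wall enzyme that forms or consumes peroxide, had levels of 9.28, 9.74 and 9.63 in the DEX arrays, against 10.50, 10.93 and 10.15 in the mock arrays. Of the 6 measured peroxidases recognised by name it was the called one, and peroxidases known only by locus were not assessed as a family. It fell by 0.97 ± 0.17 (limma adjusted p = 0.00128), with no overlap between the groups. SKU5, a membrane-anchored wall protein of directional root growth and the called member of 4 in its family, rose by 0.34 ± 0.09 from a high level, and its call ended without DEX replicate 2 or 3 or mock replicate 1 (adjusted p up to 0.0773).

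**Figure D2:**
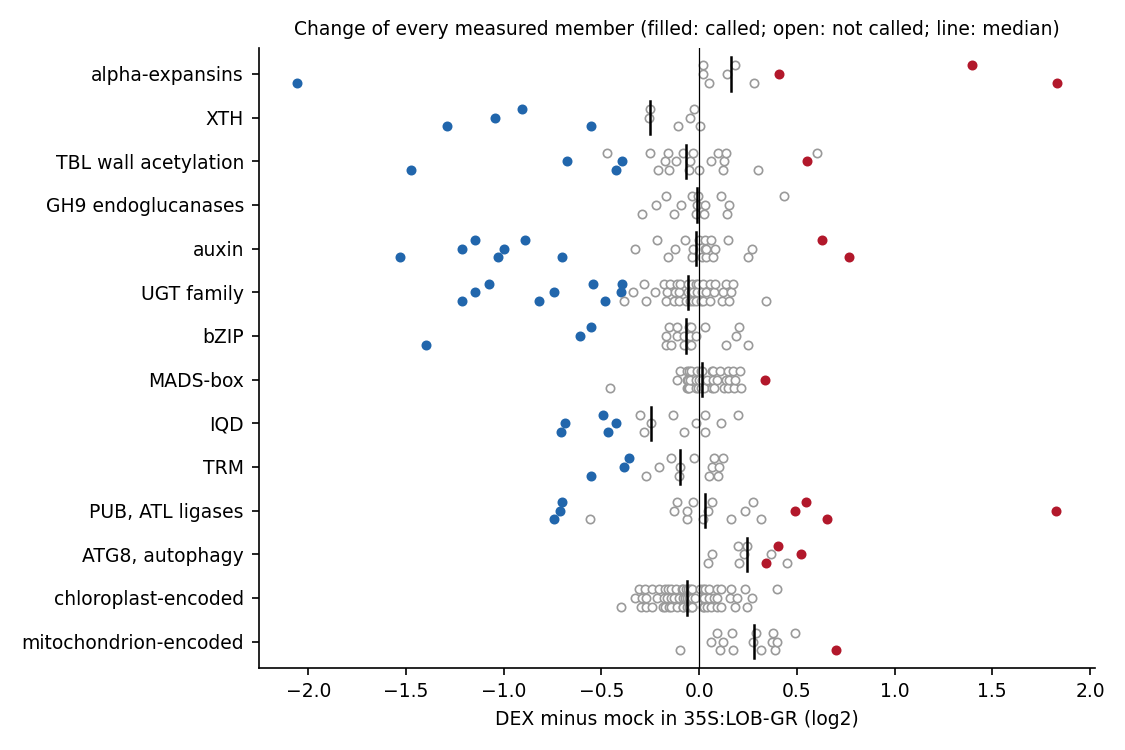
Change with DEX (DEX minus mock in 35S:LOB-GR, log2) of every measured member of 14 lists, 1 point a gene, filled red or blue where called and open where not, with a line at the list's median. The XTH and IQD points run to the left, the ATG8 and mitochondrion-encoded points lie almost all right of 0, and the 69 chloroplast-encoded genes lie between -0.40 and 0.40 with none called.

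Brassinosteroids are steroid hormones that drive cell expansion. They are sensed at the cell surface by receptor kinases of the BRI1 family and act through BES1-type transcription factors with bHLH partners. Of 8 measured genes of this pathway 2 rose and 2 fell. BRL1, a receptor related to BRI1 and known from vascular tissue, had levels of 5.17, 5.03 and 5.04 in the DEX arrays, against 3.77, 3.78 and 3.82 in the mock arrays. Its mock arrays lay in the lowest class of levels and its DEX arrays did not, and BRL1 rose by 1.29 ± 0.08 (limma adjusted p = 1.77e-07). BAT1, the acyltransferase that inactivates brassinosteroids, had levels of 7.34, 7.34 and 7.23 in the DEX arrays, against 6.49, 6.55 and 6.56 in the mock arrays. All arrays of a group lay within 0.11 of each other, and BAT1 rose by 0.77 ± 0.09 (limma adjusted p = 3.57e-05), against a change of -0.02 in Col. BIM1, a bHLH partner of BES1, fell by 0.47 ± 0.10 (limma adjusted p = 0.0051), also without overlap. EXO (EXORDIUM), a secreted protein induced by brassinosteroids, fell by 0.85 ± 0.21. Its call ended without DEX replicate 1 or mock replicate 2 (adjusted p up to 0.0625), and the change was -0.54 without mock replicate 2. The sterol enzyme CPI1 (0.03), the bHLH factor CES (0.10), the RING protein BRH1 (0.04) and BIN4 (0.13) were not called.

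Auxin is made by YUC enzymes, moved by transporters under the control of protein kinases, sensed through Aux/IAA repressors and inactivated by conjugation to amino acids or to glucose. Among 28 measured auxin genes there were 2 rises and 7 falls at a median change of -0.02, and 4 of the falls were in conjugation. GH3.3, which joins auxin to amino acids, had levels of 6.22, 5.60 and 5.998 in the DEX arrays, against 6.80, 7.93 and 7.68 in the mock arrays. No DEX array overlapped the mock range, although mock replicate 1 was more than 0.8 below the other mock arrays. GH3.3 fell by 1.53 ± 0.25 (limma adjusted p = 0.00079) in 35S:LOB-GR and had a change of 0.94 in Col, not called, and the difference of responses was called (limma adjusted p = 0.000678). WES1, or GH3.5, fell by 0.70 ± 0.15 (limma adjusted p = 0.00617), with a change of 0.41 in Col. GH3.17, which conjugates auxin to glutamate, rose by 0.63 ± 0.16, a call that ended without DEX replicate 2 or mock replicate 2 (adjusted p up to 0.0973), with a change of 0.42 without DEX replicate 2. GH3.1 (-0.0027) and GH3.9 (-0.04) were not called.

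Of 4 measured enzymes that attach glucose to auxin, UGT74D1 and IAGLU fell. UGT74D1 had levels of 6.53, 6.42 and 6.53 in the DEX arrays, against 7.61, 7.68 and 7.82 in the mock arrays. No array of one group came near the other group, and UGT74D1 fell by 1.21 ± 0.10 (limma adjusted p = 2.16e-06). IAGLU had 7.33, 7.18 and 7.06 in the DEX arrays, against 7.99, 8.70 and 8.32 in the mock arrays. Again the groups did not overlap, and IAGLU fell by 1.15 ± 0.17 (limma adjusted p = 0.000448). UGT84B1 (0.04) and UGT84B2 (-0.03) were not called.

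HAT2, an HD-ZIP transcription factor induced by auxin, had levels of 6.64, 6.83 and 6.68 in the DEX arrays, against 7.54, 7.81 and 7.80 in the mock arrays. There was no overlap between the groups, and HAT2 fell by 1.00 ± 0.12 (limma adjusted p = 5.21e-05), with a change of 0.23 in Col. ARL (ARGOS-LIKE), which promotes organ growth by cell expansion and is in this list by name only, fell by 0.89 ± 0.16 (limma adjusted p = 0.00195). The kinase WAG2, which acts on auxin efflux carriers, fell by 1.03 ± 0.25, a call that ended without DEX replicate 2 or 3 or mock replicate 2 (adjusted p up to 0.0681). SKP2A, an F-box protein that binds auxin and acts on cell-cycle factors, rose by 0.77 ± 0.15 (limma adjusted p = 0.00293). None of the 7 measured Aux/IAA repressors, IAA18, IAA20, IAA29, IAA30, IAA31, IAA33 and IAA34, was called. They lay between -0.33 (IAA29) and 0.27 (IAA18), with a median of 0.03, and with each array's median subtracted 1 of them was called higher. Of the synthesis genes YUC2 (0.25), YUC4 (0.08), YUC6 (-0.22) and YUC11 (0.03) none was called, and neither were PID2 (0.06) and AZG1 (-0.12). LBD16 (-0.07) and LBD29 (0.03), LOB-domain factors that auxin induces in lateral root initiation and the measured named members of LOB's own family, did not pass the test.

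Cytokinin is relayed by response regulators. Of 6 measured, the type-A regulators ARR15 (-0.44) and RR16 (-0.39), which damp the signal, fell. Their calls ended for ARR15 without DEX replicate 1 or mock replicate 1 or 2 (adjusted p up to 0.108) and for RR16 without DEX replicate 1 or 3 or mock replicate 1 or 2 (adjusted p up to 0.139), and RR16 was also not called with each array's median subtracted. The remaining regulators RR18 (0.28), RR19 (0.02), RR22 (0.04) and RR23 (-0.02) were not called. The gibberellin receptors GID1A (0.23), GID1B (0.0047) and GID1C (0.18) were not called either, while SLY1, the F-box protein that removes the growth-repressing DELLA proteins, rose by 0.47 ± 0.09 (limma adjusted p = 0.00316). In the jasmonate list 2 of 13 rose and 2 fell. The members that rose, JAL33 (0.72 ± 0.11) and JAL34 (0.55 ± 0.10), are jacalin-related lectins, which bind sugars and are in this list by name only. JAL33 was among the bright genes, at 11.12, 10.91 and 10.76 in the DEX arrays, against 10.32, 10.06 and 10.25 in the mock arrays. The ranges of the groups were apart (limma adjusted p = 0.00034). MYC4, a bHLH activator of jasmonate responses, had 4.88, 5.07 and 4.86 in the DEX arrays, against 5.45, 5.45 and 5.44 in the mock arrays. Its mock arrays lay within 0.01 of each other and above every DEX array, and MYC4 fell by 0.51 ± 0.09 (limma adjusted p = 0.00165). The other fall, DLAH, a lipase (-0.39), had a call that ended without DEX replicate 2 or 3 or mock replicate 2 or 3 (adjusted p up to 0.134) and with each array's median subtracted.

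**Figure D3:**
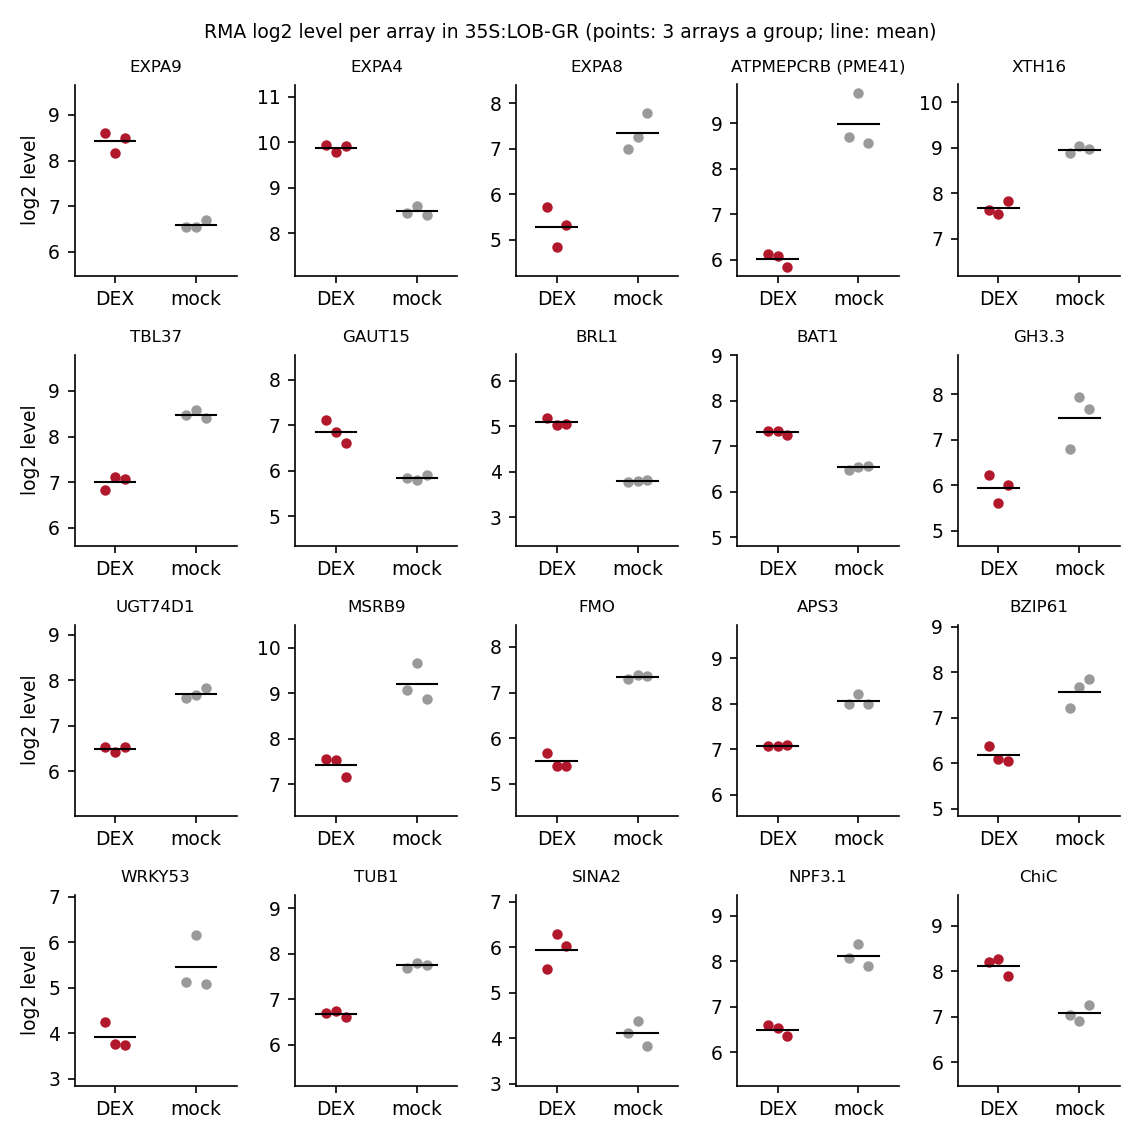
RMA log2 level of 20 named genes in each 35S:LOB-GR array, DEX (red, left) and mock (grey, right), with a line at each group's mean of 3 arrays. Every panel spans the same 4.2 log2 units, and in all 20 panels the DEX and mock arrays do not overlap.

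Among members recognised by name, families that conjugate or oxidise small molecules had falls and few or no rises. UDP-glycosyltransferases (UGT) attach sugars to hormones and secondary metabolites. Of the 52 members recognised by symbol or synonym none rose and 9 fell, with a median of -0.06. Family members known only by locus are not covered by this count. Beside UGT74D1 and IAGLU, the largest falls were those of UGT84A3, which glucosylates hydroxycinnamic acids, at -1.08 ± 0.16, and UGT87A2, at -0.82 ± 0.11. In Col these had changes of -0.47 and -0.42, not called, and their difference of responses was not called (limma adjusted p = 0.171 and limma adjusted p = 0.166). Of 15 glutathione S-transferases, which join glutathione to reactive compounds, 2 fell and none rose. GSTU20 was bright, at 10.28, 10.51 and 10.26 in the DEX arrays, against 11.47, 11.26 and 11.08 in the mock arrays. The groups did not overlap, and GSTU20 fell by 0.92 ± 0.12 (limma adjusted p = 0.000108). GSTU27 fell by 0.72 ± 0.13.

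Methionine sulfoxide reductases repair oxidised methionine in proteins. Of 5 measured, 2 fell and 1 rose. MSRB9 had levels of 7.55, 7.53 and 7.16 in the DEX arrays, against 9.08, 9.66 and 8.87 in the mock arrays. Every DEX array was more than 1 log2 unit below every mock array, and MSRB9 fell by 1.79 ± 0.20 (limma adjusted p = 2.75e-05), against a change of 0.03 in Col. MSRB5 had 6.09, 6.54 and 5.76 in the DEX arrays, against 7.87, 6.997 and 7.42 in the mock arrays. Its groups came closer without overlap, and MSRB5 fell by 1.30 ± 0.22. MSRB3 rose by 0.49 ± 0.14, although DEX replicate 3 lay below mock replicate 1, and its call ended without DEX replicate 1 or 2 or mock replicate 2 or 3 (adjusted p up to 0.177). In the CYP71B cytochrome P450 subfamily, 1 of 19 rose and 1 fell. CYP71B23 fell by 1.36 ± 0.27 (limma adjusted p = 0.00325) and CYP71B22 rose (0.41), with a call that ended without DEX replicate 2 or 3 or mock replicate 1 or 3 (adjusted p up to 0.149).

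Glucosinolates are the sulfur-rich defence compounds of crucifers. BCAT4, which starts the chain elongation of methionine for glucosinolates, fell by 0.91 ± 0.15, and GTR2, a glucosinolate transporter, fell by 0.85 ± 0.11. These were the called members of 4 measured glucosinolate genes, next to GTR1 (-0.33) and CYP79A2 (0.02). The difference from Col was not called for BCAT4 (limma adjusted p = 0.257) or GTR2 (limma adjusted p = 0.0718). No list of sulfur assimilation genes was used, and single genes are given for themselves. APS3, an ATP sulfurylase that activates sulfate, had levels of 7.08, 7.06 and 7.09 in the DEX arrays, against 7.99, 8.22 and 7.99 in the mock arrays. The DEX arrays lay within 0.04 of each other and well under the mock arrays, and APS3 fell by 0.99 ± 0.10 (limma adjusted p = 7.17e-06). Outside the lists, and named after their values were seen, SUFE2, an activator of iron-sulfur cluster assembly, had 4.91, 5.33 and 5.14 in the DEX arrays, against 6.51, 6.65 and 6.31 in the mock arrays. DEX and mock arrays did not overlap, and SUFE2 fell by 1.36 ± 0.16 (limma adjusted p = 3.55e-05). Sulfite reductase, SIR, fell by 0.40 ± 0.10, a call that ended without DEX replicate 1, 2 or 3 or mock replicate 2 or 3 (adjusted p up to 0.077). UGT74B1, which glucosylates the glucosinolate precursor and was also named after its value was seen, fell by 0.40 ± 0.09 (limma adjusted p = 0.00923). FMO, a flavin monooxygenase chosen in the same way, had 5.68, 5.39 and 5.39 in the DEX arrays, against 7.30, 7.39 and 7.36 in the mock arrays. The arrays of a group agreed to within 0.3, and FMO fell by 1.86 ± 0.11 (limma adjusted p = 1.11e-07), with a change of 0.01 in Col.

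Of 23 lipid, wax and sphingolipid genes 5 fell, DLAH among them, and none rose. AT5G61590 (DEWAX), a repressor of wax synthesis, fell by 0.67 ± 0.12, and AT4G13840 (CER26), which serves the elongation of wax precursors, fell by 0.54 ± 0.10. The acyl-ACP thioesterase FATB (-0.43) and the sphingolipid lyase DPL1 (-0.48) were called with all arrays. Their calls ended for FATB without DEX replicate 2 or 3 or mock replicate 2 or 3 (adjusted p up to 0.133) and for DPL1 without DEX replicate 1, 2 or 3 or mock replicate 1 or 2 (adjusted p up to 0.168), and DPL1 changed by -0.27 without mock replicate 2. With each array's median subtracted, the number of lipid genes that fell was 2, and neither FATB nor DPL1 was among the calls.

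Among transporters, the nitrate and peptide transporter AT1G68570 (NPF3.1), known to carry gibberellin, had levels of 6.60, 6.53 and 6.36 in the DEX arrays, against 8.07, 8.37 and 7.89 in the mock arrays. The groups lay more than 1 log2 unit apart, and AT1G68570 fell by 1.61 ± 0.15 (limma adjusted p = 4.09e-06). Together with GTR2 it made up the 2 falls of 12 measured genes of its list. SWEET proteins let sugars cross membranes. Of 16 measured 1 rose and 3 fell. SWEET1, which moves glucose, had 7.55, 7.52 and 7.47 in the DEX arrays, against 8.67, 8.40 and 8.14 in the mock arrays. No DEX array overlapped the mock range, and SWEET1 fell by 0.89 ± 0.14 (limma adjusted p = 0.000722). The vacuolar fructose carrier SWEET17 (-0.50) and SWEET2 (-0.36) fell and SAG29, or SWEET15, rose (0.33). These calls ended for SWEET17 without mock replicate 2 (adjusted p up to 0.0531), for SWEET2 without DEX replicate 2 or 3 or mock replicate 1, 2 or 3 (adjusted p up to 0.179) and for SAG29 without DEX replicate 1 or 2 or mock replicate 1, 2 or 3 (adjusted p up to 0.119). After subtraction of each array's median, SWEET2 was not called and 2 members were higher. CHX16, the called member of 7 cation/H+ exchangers, had 4.81, 5.03 and 4.75 in the DEX arrays, against 5.82, 5.93 and 5.75 in the mock arrays. It fell by 0.97 ± 0.11 (limma adjusted p = 3.68e-05), but it was also called lower in Col (-0.71), and the difference of responses was not called (limma adjusted p = 0.471).

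Among transcription factors, calls were spread over several families. Of 22 bZIP factors none rose and 3 fell. BZIP61 had levels of 6.38, 6.11 and 6.05 in the DEX arrays, against 7.21, 7.68 and 7.85 in the mock arrays. The lowest mock array was more than 0.8 above the highest DEX array, and BZIP61 fell by 1.40 ± 0.15 (limma adjusted p = 2.35e-05), with a change of 0.28 in Col. bZIP44 fell by 0.61 ± 0.13, and bZIP52 fell (-0.55) with a call that ended without DEX replicate 2 or 3 or mock replicate 1 or 2 (adjusted p up to 0.126). WRKY53, a regulator of leaf senescence and the called member of 7 WRKY factors, had 4.25, 3.77 and 3.75 in the DEX arrays, against 5.14, 6.15 and 5.08 in the mock arrays. Mock replicate 2 was about 1 unit above the other mock arrays and the groups did not overlap. WRKY53 fell by 1.53 ± 0.25 (limma adjusted p = 0.000827), and its difference from Col, where it had a change of -0.57, was not called (limma adjusted p = 0.165). Of 23 bHLH factors 1 rose and 4 fell. NAI1, which drives the formation of endoplasmic reticulum bodies, had 6.81, 7.45 and 7.20 in the DEX arrays, against 6.36, 6.28 and 6.38 in the mock arrays. Its DEX arrays varied over 0.6 units above tightly grouped mock arrays, and NAI1 rose by 0.81 ± 0.14 (limma adjusted p = 0.000919). Beside MYC4 and BIM1, the epidermal factor ATMYC1 (-0.59) and SPCH, which starts the stomatal lineage (-0.43), fell, with calls that ended for ATMYC1 without DEX replicate 1 or mock replicate 1 or 2 (adjusted p up to 0.101) and for SPCH without DEX replicate 1 or 2 or mock replicate 1 or 2 (adjusted p up to 0.132). The later stomatal factors MUTE (-0.04) and FMA (-0.27) and the peptide STOMAGEN (-0.07) were not called.

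Genes that shape organs and their boundaries were for the most part not called. Of 40 measured, 2 rose and 2 fell, near the background shares, and the falls were ARL and EXO. YAB5, which promotes lamina growth, had levels of 8.09, 8.55 and 8.40 in the DEX arrays, against 7.96, 7.76 and 7.37 in the mock arrays. There was no overlap between the groups by a narrow margin, and YAB5 rose by 0.65 ± 0.14 (limma adjusted p = 0.00745), while its relative YAB3 had a change of -0.23, not called. NGA3, a B3 factor of leaf margins, rose by 0.41 ± 0.10, a call that ended without DEX replicate 3 or mock replicate 1 (adjusted p up to 0.0774). Its relatives NGA1 (-0.35), NGA2 (-0.29) and NGA4 (0.09) were not called. LAS, a boundary gene needed for axillary meristems, had 4.71, 4.68 and 4.73 in the DEX arrays, against 4.78, 4.82 and 4.95 in the mock arrays. All 3 DEX values lay below the mock values, but the change of -0.14 ± 0.12 did not pass the test (limma adjusted p = 0.566). PUCHI, an AP2-type factor of lateral organ and lateral root initiation, was in the lowest class of levels and was not called (0.04). Of 41 MADS-box factors AGL18 was the one called (0.33), and that call ended without DEX replicate 2 or 3 or mock replicate 1, 2 or 3 (adjusted p up to 0.184). Among 16 flowering-time genes, which include AGL18, SNZ, an AP2-type repressor of flowering, fell by 0.83 ± 0.17, and ATC, a relative of TERMINAL FLOWER 1, fell by 0.68 ± 0.12.

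Microtubules set the direction in which plant cells expand. IQD proteins bind calmodulin and microtubules, and TRM proteins recruit the complexes that organise cortical arrays. Of 15 measured IQD genes none rose and 5 fell, and 11 had a negative change, with a median of -0.25 in 35S:LOB-GR and -0.01 in Col. IQD19 had levels of 5.55, 5.43 and 5.35 in the DEX arrays, against 6.18, 6.17 and 6.10 in the mock arrays. The groups were narrow and apart, and IQD19 fell by 0.71 ± 0.11 (limma adjusted p = 0.000605). IQD23 had 6.41, 6.14 and 6.08 in the DEX arrays, against 6.83, 7.01 and 6.84 in the mock arrays. It fell by 0.69 ± 0.13 (limma adjusted p = 0.00209), again without overlap. iqd21 fell by 0.49 ± 0.09. IQD28 fell (-0.47) with a call that ended without DEX replicate 3 or mock replicate 1 or 2 (adjusted p up to 0.074). The difference from the Col response was called for IQD19, IQD23 and iqd21 and not for IQD28 (limma adjusted p = 0.513). Of 15 TRM genes none rose and 3 fell. The calls were small and ended for TRM28 (-0.55) without DEX replicate 3 or mock replicate 1 (adjusted p up to 0.075), for TRM19 (-0.39) without DEX replicate 2 or 3 or mock replicate 1, 2 or 3 (adjusted p up to 0.169) and for TRM22 (-0.36) without DEX replicate 2 or 3 or mock replicate 1, 2 or 3 (adjusted p up to 0.163). With each array's median subtracted TRM28 was the one TRM gene called.

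Of 14 tubulin, kinesin and other microtubule genes 1 rose and 1 fell, and 12 had a negative change (median -0.18). TUB1, a beta-tubulin, had levels of 6.71, 6.73 and 6.60 in the DEX arrays, against 7.70, 7.80 and 7.75 in the mock arrays. The groups were about 1 unit apart with little spread inside them, and TUB1 fell by 1.07 ± 0.10 (limma adjusted p = 6.53e-06), against a change of 0.31 in Col, where it was not called. TUA1, an alpha-tubulin, rose by 0.52 ± 0.12 (limma adjusted p = 0.00857). Of 23 actin, NET, myosin and LIM genes 1 fell, WLIM1, an actin-bundling LIM protein (-0.45 ± 0.09), and none rose. BRK1, of the complex that starts actin branching and of the trichome list, rose (0.43), with a call that ended without DEX replicate 1 or 2 or mock replicate 2 or 3 (adjusted p up to 0.128).

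Among 19 receptor and receptor-like cytoplasmic kinases with a name, BRL1 rose and 3 fell. SD1-29, which senses bacterial fatty acids, fell by 0.86 ± 0.17, and PTI1-4 fell by 0.74 ± 0.11. B120, an S-domain kinase, fell by 0.77 ± 0.20 with a call that ended without DEX replicate 1 or mock replicate 2 (adjusted p up to 0.0978). CLE41 encodes the peptide that keeps vascular stem cells dividing. It had levels of 8.09, 7.90 and 7.80 in the DEX arrays, against 8.65, 8.64 and 8.65 in the mock arrays. The mock arrays lay within 0.01 of each other and above all DEX arrays, and CLE41 fell by 0.72 ± 0.10 (limma adjusted p = 0.000234), the called member of 7 measured CLE genes. RALFL32, a relative of the growth-inhibiting RALF peptides and the called member of 15, fell by 0.63 ± 0.14 (limma adjusted p = 0.00736).

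Of 19 defensins, thionins and related genes 1 rose and 4 fell. ChiC, a class V chitinase, had levels of 8.22, 8.26 and 7.91 in the DEX arrays, against 7.05, 6.92 and 7.27 in the mock arrays. The lowest DEX array was above the highest mock array by more than 0.6, and ChiC rose by 1.05 ± 0.14 (limma adjusted p = 0.00013). The defensin-like genes LCR68 and LCR69 had high levels. LCR68 had 9.78, 9.64 and 9.32 in the DEX arrays, against 10.65, 10.39 and 10.67 in the mock arrays. It fell by 0.98 ± 0.12 (limma adjusted p = 4.74e-05), without overlap, and LCR69 fell by 0.72 ± 0.13. The thaumatin-like ATLP-1 fell by 0.48 ± 0.10. The jasmonate-responsive defensin PDF1.2b fell (-0.87), with a call that ended without DEX replicate 1 or 3 or mock replicate 1 or 3 (adjusted p up to 0.0835). Its probe set is of a kind whose probes may bind related transcripts as well. Of 12 cold, dehydration and late embryogenesis genes AT2G46140 (LEA27) rose (0.67) and the dehydrin LTI30 fell (-0.88). The call of AT2G46140 ended without DEX replicate 2 or mock replicate 2 (adjusted p up to 0.0618), and LTI30 had a change of -0.82 in Col, close to its change in 35S:LOB-GR. TIL, a temperature-induced lipocalin outside the lists and named after its value was seen, rose by 0.80 ± 0.10 (limma adjusted p = 0.000108).

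Ubiquitin ligases mark proteins for breakdown. Of 20 PUB, ATL and related ligases 4 rose and 3 fell. AT3G13672 (SINA2), a short relative of SINA-type ligases, had levels of 5.53, 6.28 and 6.02 in the DEX arrays, against 4.12, 4.39 and 3.84 in the mock arrays. The lowest DEX array was more than 1 unit above the highest mock array, and the mock arrays lay near the lowest class of levels. It rose by 1.83 ± 0.17 (limma adjusted p = 6.83e-06). PUB22 and PUB23, close relatives that both damp immune signalling, changed in opposite directions. PUB22 had 6.32, 6.67 and 6.19 in the DEX arrays, against 5.83, 5.46 and 5.93 in the mock arrays, a rise of 0.65 ± 0.14 (limma adjusted p = 0.00713). PUB23 had 5.39, 5.19 and 5.13 in the DEX arrays, against 6.11, 5.91 and 5.79 in the mock arrays, a change of -0.70 ± 0.12 (limma adjusted p = 0.000956). In neither did the groups overlap. PUB25 (0.55) and ATL63 (0.49) rose, PUB25 without a call when only the 6 compared arrays were fitted, and ATL8 (-0.74) and ATL5 (-0.71) fell. Among 19 SKP1-like, F-box and cullin genes SKP2A and SLY1 rose and FBL17, which clears inhibitors of cell division, fell (-0.39), with a call that ended without DEX replicate 2 or 3 or mock replicate 2 (adjusted p up to 0.101). None of 12 ubiquitin-specific proteases, which remove ubiquitin, was called (median -0.04).

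ATG8 proteins coat the membranes that enclose cell contents for autophagy. Of 11 measured ATG8 and related genes all had a positive change, with a median of 0.24 in 35S:LOB-GR and 0.01 in Col, and 3 were called. ATG8C had levels of 8.49, 8.48 and 8.19 in the DEX arrays, against 7.89, 7.71 and 8.002 in the mock arrays. The ranges of the groups were apart, and ATG8C rose by 0.52 ± 0.10 (limma adjusted p = 0.00334). ATG8F (0.40) and ATG8D (0.34) rose with calls that ended for ATG8F without DEX replicate 2 or mock replicate 2 (adjusted p up to 0.0782) and for ATG8D without DEX replicate 1 or 2 or mock replicate 1, 2 or 3 (adjusted p up to 0.141). The number called higher was 5 with each array's median subtracted. No member had a called difference from Col. Of 29 chaperones and folding genes 3 rose and 3 fell. Fes1B (0.56) and Fes1C (0.45), which recharge Hsp70, rose, as did ATCRT1 (0.57), for which no chaperone role is given here. The call of Fes1C ended without DEX replicate 2 (adjusted p up to 0.052), and its change was then 0.30. Hsp70-2 (-0.70), the ER co-chaperone ATERDJ3B (-0.49) and the calreticulin CRT1b (-0.45) fell. Hsp70-2 was not called when only the 6 compared arrays were fitted.

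Organelle-encoded and photosynthesis genes held few calls or none. Nuclear respiration genes (12.5% called) and aldehyde dehydrogenases (37.5%) were above the 8.82% of all named genes. The respiration share was close to the 11.2% called among probe sets of genes with a name beyond the locus. Of 69 chloroplast-encoded genes none was called, with a median of -0.06, against -0.20 in Col, where 1 was called. The widest gap between the genotypes lay in the 19 chloroplast genes for ribosomal proteins and RNA polymerase, with a median of -0.09 in 35S:LOB-GR and -0.50 in Col, and the difference of responses was called for 2 of them. Of 37 nuclear genes of photosynthesis and the Calvin cycle 1 rose, PGRL1B (0.38), and 1 fell, PPDK (-0.50), and of 18 tetrapyrrole and carotenoid genes none was called. PGRL1B, a factor of cyclic electron flow, lost its call without DEX replicate 2 or mock replicate 1 (adjusted p up to 0.0866), and PPDK, which makes phosphoenolpyruvate, without DEX replicate 1 or 3 or mock replicate 1 or 2 (adjusted p up to 0.141). Of 16 mitochondrion-encoded genes 15 had a positive change (median 0.28, and 0.08 in Col) and nad1, a subunit of complex I, was called (0.70). Against the mock mean, the list's median was 0.53 in DEX replicate 1, 0.09 in replicate 2 and 0.21 in replicate 3. The 7 probe sets of nad1 disagreed, with changes between 0.05 and 0.70, and the call ended without mock replicate 1 (adjusted p up to 0.0628). Of 32 nuclear genes of respiration and organic acid metabolism 1 rose and 3 fell. FDH, formate dehydrogenase, had 11.22, 11.19 and 11.16 in the DEX arrays, against 11.83, 11.58 and 11.76 in the mock arrays. It fell by 0.53 ± 0.08 without overlap (limma adjusted p = 0.000492). The glyoxylate enzyme ICL (0.46), the external NADH dehydrogenase NDB2 (-0.41) and the acetyl-CoA synthetase ACS (-0.39) had weaker calls, which ended for ICL without DEX replicate 1 or mock replicate 1 or 2 (adjusted p up to 0.0986), for NDB2 without DEX replicate 3 or mock replicate 2 (adjusted p up to 0.0769) and for ACS without DEX replicate 1 or mock replicate 2 or 3 (adjusted p up to 0.116). Of 8 aldehyde dehydrogenases, which clear reactive aldehydes, ALDH3F1 (-0.60 ± 0.10) and ALDH7B4 (-0.53 ± 0.09) fell and ALDH22A1 rose (0.37), the last with a call that ended without DEX replicate 1 or 3 or mock replicate 1 or 2 (adjusted p up to 0.149).

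Most lists of basic cell functions held few calls or none for their size. Shares above the 8.82% of all named genes were those of the PRA1, tetraspanin, and mitosis and DNA synthesis lists. Of 30 splicing and RNA-binding genes LSM3A rose (0.44), of 31 DNA repair and meiosis genes DRT100 fell (-0.64), and of 41 exocyst, SNARE and ESCRT genes ARA6 rose (0.37). Each of these calls ended with 1 array left out, for LSM3A without DEX replicate 2 or mock replicate 3 (adjusted p up to 0.0798), for DRT100 without DEX replicate 2 or 3 or mock replicate 2 (adjusted p up to 0.07) and for ARA6 without DEX replicate 2 or 3 or mock replicate 1, 2 or 3 (adjusted p up to 0.146). None of 10 histone and replication genes, 8 glutamate receptors and 10 clock genes (CCL, CCR2, COR27, FIO1, GI, LIP1, STIPL1, TIC, TKL and XCT) was called. GI, a clock gene of the evening, had a change of -0.19 and the clock-regulated COR27 one of -0.10 in 35S:LOB-GR. COR27 was called higher in Col (1.24), with a called difference of responses (limma adjusted p = 0.000507). Of 25 genes of mitosis and DNA synthesis SKP2A and SIM (0.55), an inhibitor of cell division in endoreduplicating cells, rose and FBL17 fell. The call of SIM ended without DEX replicate 1 or mock replicate 1 or 2 (adjusted p up to 0.0628). Of 12 RNA polymerase subunits NRPD7, of the plant-specific polymerases of gene silencing, rose (0.67), with a called difference from Col. Of 11 PRA1 genes, which act on RAB proteins of membrane traffic, PRA1.F1 (-0.83) and PRA1.B6 (-0.65) fell, PRA1.B6 without a call when only the 6 compared arrays were fitted. OTP81, an organelle RNA editing factor, and UBC30, a ubiquitin-conjugating enzyme, rose (0.37 and 0.31), and the chromatin protein 3xHMG-box2 fell (-0.63). Their calls ended for OTP81 without DEX replicate 1 or 3 or mock replicate 2 or 3 (adjusted p up to 0.0921), for UBC30 without DEX replicate 2 or 3 or mock replicate 1, 2 or 3 (adjusted p up to 0.144) and for 3xHMG-box2 without DEX replicate 1 or 2 or mock replicate 1, 2 or 3 (adjusted p up to 0.149). Each was the called member of its list, of 21, 13 and 26 measured genes in that order. With each array's median subtracted 3xHMG-box2 was not called. The tetraspanin TET5, a membrane scaffold protein, rose (0.60 ± 0.10) and TET8 fell (-0.43), of 15 measured. The call of TET8 ended without DEX replicate 2 or 3 or mock replicate 1 or 2 (adjusted p up to 0.167), its change was -0.26 without DEX replicate 3, and it was also lost with each array's median subtracted. GAMMA-VPE, a protease of the vacuole, rose (0.60), with a call that ended without DEX replicate 1 or 2 or mock replicate 2 (adjusted p up to 0.104).

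**Figure D4:**
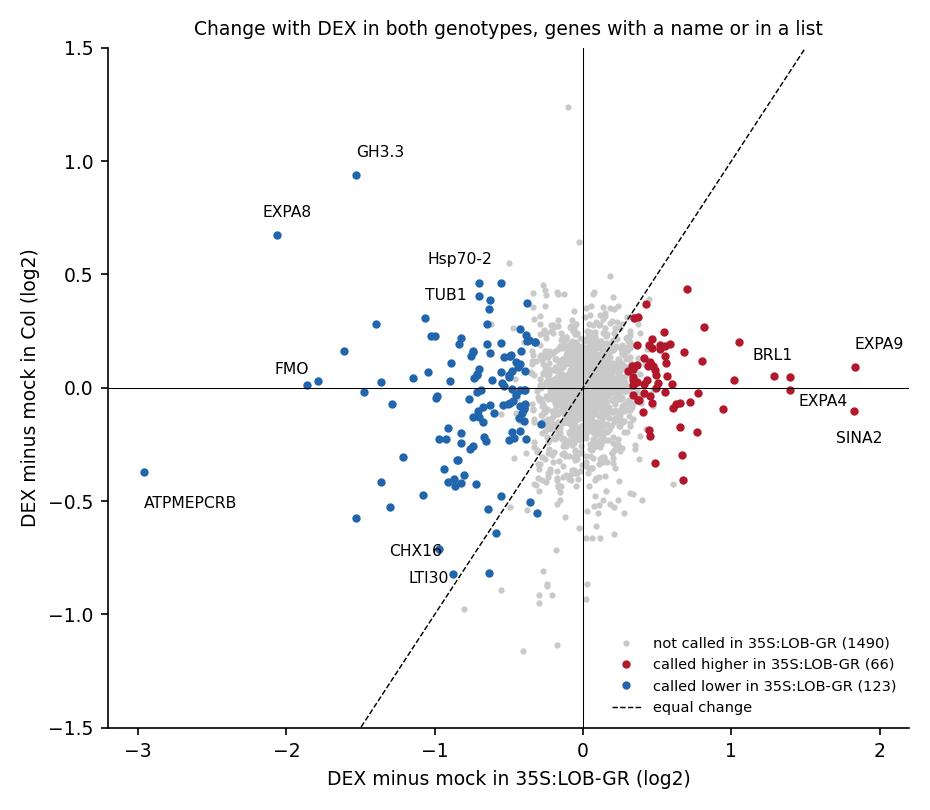
Change with DEX in 35S:LOB-GR (horizontal) against change with DEX in Col (vertical), both DEX minus mock on the log2 scale, for each gene with a name or in a list, coloured by its call in 35S:LOB-GR. Genes called in 35S:LOB-GR spread along the horizontal axis and lie mostly near 0 in Col, CHX16 and LTI30 lie near the dashed line of equal change, and EXPA8 and GH3.3 stand above 0 in Col.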

How the data were processed

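RNA of 9-day-old seedlings was hybridised to 12 Affymetrix arrays of 1 colour, and 6 of them form the comparison. The deposited values are log2 levels, 1 per probe set and array, which the authors computed by RMA according to the submitters' processing notes. That method corrects background, gives all arrays a common distribution and sums up the probes of a set, so a shift shared by most transcripts would be reduced. No detection calls were used and depth does not apply. The number of arrays limits the precision. The replicates' origin is not described further, so p-values measure the spread between these arrays.

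A model of 4 group means over all 12 arrays was fitted with limma 3.58.1 in R 4.3.3 (lmFit, contrasts, eBayes), with 8 residual degrees of freedom and 6.86 from the prior. The 64 control probe sets were left out. Tests were two-sided, with Benjamini-Hochberg adjustment over 22746 probe sets. Tested on simulated data with 200 changed probe sets, the fit called 54% of changes of 0.5 and 98% of changes of 1 for DEX in 35S:LOB-GR, with 12 false calls, and 16% and 76% for the difference of responses, with 4 false calls. Far more probe sets were called in the data than were changed in the simulation. The Benjamini-Hochberg cut-off depends on that share, so these percentages do not give the recovery in the data.

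Gene names come from the platform's annotation, brought up to date with a RefSeq table of assembly TAIR10.1, which 13436 of 13513 one-gene probe sets matched. It named none of 8730 probe sets and several genes for 503. Each gene is represented by its brightest one-gene probe set, and 130 lists were built by words in symbols and synonyms, of which 120 had a member. Up to 4 called members per list and direction are named, those of largest change, with members that were not called in lists of 12 or fewer. Members and lists were chosen with earlier results of these data known.

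Same-numbered DEX and mock arrays of 35S:LOB-GR did not deviate together (correlations of -0.23, -0.04 and -0.09), so the numbers gave no ground for pairing. Correlations were -0.09 and 0.30 for DEX replicate 1 with mock replicates 2 and 3. They were 0.34 and -0.27 for DEX replicate 2 with mock replicates 1 and 3. For DEX replicate 3 with mock replicates 1 and 2 they were -0.08 and 0.16. Whether arrays of unlike number share an origin was not tested. Alternatives were other scalings, a stricter threshold, dim probe sets left out, trend and robust eBayes, array weights, only the compared arrays, the replicate number as a block, and leaving out each array in turn. No promoter sequence was used.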

Additional observations from a re-analysis of the deposited data

Results flagged for a closer look

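The DEX response of 35S:LOB-GR minus the DEX response of Col was tested for every probe set with limma, and 69 of the genes named in the report had a called difference, at an adjusted p under 0.05. They are given here because the 2 genotypes responded differently by that test. Each value is that difference on the log2 scale, and a negative value means a lower response in 35S:LOB-GR. No explanation was tested for any of them.

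Among cell wall genes, the negative differences were those of EXPA8 (-2.73), ATPMEPCRB (-2.59), TBL37 (-1.46), XTH16 (-1.22), EXLB1 (-1.01), EXLA2 (-0.93), EXPB1 (-0.75) and XTH20 (-0.73). Further ones were those of BGLU44 (-0.90), SCPL34 (-0.78), BGLU40 (-0.62), CSLC04 (-0.58) and PMEPCRF (-0.48). Positive differences were those of EXPA9 (1.74), EXPA4 (1.35), EXPB3 (1.04), GAUT15 (0.98), scpl48 (0.66) and SCPL45 (0.49).

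Of the hormone genes, GH3.3 (-2.47), HAT2 (-1.23), IAGLU (-1.19), WES1 (-1.11), ARL (-0.92) and UGT74D1 (-0.91) responded lower in 35S:LOB-GR. All are in the auxin list, ARL by name only. The genes BRL1 (1.23), SKP2A (0.96) and BAT1 (0.79) responded higher, as did the jacalin-related lectins JAL33 (0.78) and JAL34 (0.57). The wall gene EXPA8 and the auxin gene GH3.3 had a change of opposite sign in Col that was not called. Others did too, among them WES1, HAT2, TUB1 and BZIP61. Part of each of these differences thus lies in the Col response.

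In metabolism and transport, negative differences were found for FMO (-1.87), MSRB9 (-1.82), AT1G68570 (-1.78), SUFE2 (-1.39), SWEET1 (-1.001), APS3 (-0.94), GSTU20 (-0.70) and FATB (-0.69). The remaining ones of this kind were FDH (-0.67), SWEET2 (-0.57), AT4G13840 (-0.57) and ALDH7B4 (-0.54).

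Transcription factors and clock genes with a lower response were BZIP61 (-1.68), SNZ (-1.03), bZIP52 (-1.01) and COR27 (-1.34). For COR27 the call lay in Col and not in 35S:LOB-GR. The cytoskeletal and signalling genes TUB1 (-1.38), PTI1-4 (-0.90), CLE41 (-0.77), IQD23 (-0.68), iqd21 (-0.63), IQD19 (-0.60) and WLIM1 (-0.56) also responded lower.

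Genes of protein turnover, folding, traffic, repair and defence with a lower response were Hsp70-2 (-1.16), PRA1.F1 (-1.05), DRT100 (-0.98), LCR68 (-0.95), ATL8 (-0.90) and PRA1.B6 (-0.84), followed by ATL5 (-0.77), LCR69 (-0.70) and FBL17 (-0.62). Those with a higher response were AT3G13672 (SINA2) (1.93), AT2G46140 (1.08), NRPD7 (0.97), ChiC (0.85), PUB22 (0.83), TIL (0.68) and TET5 (0.58).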

How the results depend on the processing

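The number of probe sets called for DEX in 35S:LOB-GR (2267) was 1299 at an adjusted p under 0.01 and 1500 when only the 6 compared arrays were fitted, of which 1484 were shared with the 2267. It ran from 1705 to 2324 with 1 of the 6 arrays left out. For the difference of responses, 1085 calls became 474 at the stricter threshold and ran from 724 to 1591 with 1 array left out, the highest without DEX replicate 1. Array weights gave 1450. In Col, 13 calls became 2 at the stricter threshold, 32 without dim probe sets, 407 with only the 6 Col arrays and 8 with the replicate block, and ran from 2 to 69 with 1 array left out, the highest without Col mock replicate 3. At an unadjusted p under 0.05, 2886 probe sets passed in Col. The replicate block gave 2177 calls for 35S:LOB-GR and 993 for the difference.

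Over all list genes, the median change was -0.0038 and became 0.0422 with each array's median subtracted. The number of list genes that rose (51) was 29 with only the compared arrays, and 39 to 52 with 1 array left out, and the number that fell (110) was then 82 to 113. That median changed its sign, whereas no called gene among those with a name or in a list changed direction under these alternatives. Of 189 called genes with a name or in a list, 110 kept their call with any of the 6 arrays left out and 79 did not. With only the 6 compared arrays fitted 67 lost it, and with the replicate block 9 did. The 9 include AGL18, ARA6, DLAH, SAG29 and SWEET2. With each array's median subtracted 15 lost their call. That scaling also raised the rises to 1 (0 before) in the cytokinin, RALF and chromatin lists, to 2 (0 before) in the PRA1 list, and to 2 (1 before) among CYP71B, receptor kinase, mitochondrion-encoded, organelle RNA, RNA polymerase and splicing genes. With few arrays, small changes can be missed. How often is not known for these data, since the simulation changed far fewer probe sets than were called.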

Other observations

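The probe sets that the annotation left unnamed held a larger share of calls than those of named genes. Of 8730 such probe sets 351 rose and 691 fell, 11.94% in all, beside 8.445% of the 11817 probe sets of genes known only by locus and 11.2% of the 1696 of genes with a name. Of the 1363 falls, 691 have no gene name here.

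Called genes next to each other on a chromosome, or with 1 gene between them, that changed in the same direction formed 83 runs with 172 genes, 37 of them higher and 46 lower. Most were pairs. The longest run had 4 genes, lay between AT1G62480 and AT1G62520, and fell. How often such runs arise from unrelated genes was not tested.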
